A study of Rattus norvegicus with 9 samples.

Results

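Thrombin raised 224 genes in rat osteoblasts by at least 1.5-fold, and 24 of them (10.7%) were also at least 1.5-fold above control when the MEK inhibitor PD0325901 (PD03) was given together with thrombin. These 24 genes, out of 19085 in the table, encode secreted and cell-surface proteins, transcription regulators, and proteins of small-GTPase signaling, membrane traffic and the cytoskeleton. They were chosen by their CPM, the read count of a gene per 1000000 counts of its library. Genes were kept when mean CPM was at least 5 in thrombin, when the thrombin and the PD03 means were each at least 1.5 times the control mean, and when all libraries of both treated groups lay above all control libraries. Both comparisons with control therefore selected the genes and are described below without a test. Of the 10191 genes with a mean thrombin CPM of at least 5, 0.236% met these conditions.

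The libraries came from primary osteoblasts that, according to the growth protocol, were isolated from the skull vault (calvaria) of male Sprague-Dawley rats at 24 hours of age, although the sample labels give the tissue as knee. All cells received osteogenic induction medium (β-glycerophosphate, ascorbic acid and dexamethasone) for 7 days. The control group received this medium alone, the thrombin group received 20 U/mL thrombin in it, and the PD03 group received 20 U/mL thrombin with 0.1 μM PD03. Each group had 3 libraries of polyadenylated RNA, with total counts from 15447832 to 19841468. The study describes the samples of a group as independent, and no source used here says whether they came from separate animals, so the p-values measure the spread between these samples. No library was treated with PD03 alone, so a thrombin effect that persisted with PD03 and an effect of PD03 itself on these genes cannot be told apart. In bulk RNA, a change in the number of cells of one type and a change in RNA per cell cannot be told apart either.

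Thrombin is a serine protease of the clotting cascade that also cleaves protease-activated receptors on cells. These receptors couple to several G proteins, whose signals run through calcium and the MEK-Erk1/2 kinase cascade, among others. PD03 blocks MEK1 and MEK2, the kinases that activate Erk1/2, and a gene induced by thrombin may depend on that branch fully, in part or not at all.

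Sequences before the annotated start are shown for 4 of the 24 genes. These genes and their motifs were chosen after the values were seen, because the genes differed in their level with PD03. No link between a motif and a level can be read from that choice. Of the 24 genes, 19 were matched by symbol or identifier in a RefSeq promoter table (build GRCr8). The 250 bases before each annotated start were searched on both strands. For each of the 19 genes the first entry listed was used, while the shares over all promoters counted every entry. The motif TGACGTCA, the cAMP response element, stood in 2 of these 19 promoters, those of Lamb3 and Lmcd1, and in 1.59% of the 33469 promoters in the table. Lamb3 and Lmcd1 were also 2 of the 3 genes that fell with PD03 relative to thrombin. The motif GGAATG, bound by TEAD factors, stood in 4 of the 19, against 12.1% of all promoters. These were Crispld2, Rasl11b, Hhipl1 and Tbc1d9, which kept 93.2%, 132%, 112% and 59.9% of their thrombin rise in mean CPM with PD03. All PD03 libraries of Tbc1d9 lay below all its thrombin libraries. Crispld2 and Rasl11b are shown as 2 of the genes whose level with PD03 stayed close to or above the thrombin level. The sequences read 5′ to 3′ on the strand of the gene and end at the base before the annotated start. Whether transcription began at these starts in these cells was not tested. The Crispld2 window ends in a pyrimidine-rich run followed by AG, which is also the form of the end of an intron. In the Hhipl1 window such a run with AG overlaps the TEAD motif. Either window may therefore lie inside its gene, so these TEAD matches may not be in promoters. Capitals mark the cAMP response element in the first pair and the TEAD motif in the second pair, which in Crispld2 lies on the opposite strand and so appears as its reverse complement.
Lamb3 (chr13:107362303-107362552, plus strand): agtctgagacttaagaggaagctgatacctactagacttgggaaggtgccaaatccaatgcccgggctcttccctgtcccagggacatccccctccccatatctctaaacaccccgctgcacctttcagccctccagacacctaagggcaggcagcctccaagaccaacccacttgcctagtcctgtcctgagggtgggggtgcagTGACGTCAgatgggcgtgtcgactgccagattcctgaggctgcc
Lmcd1 (chr4:146948743-146948992, plus strand): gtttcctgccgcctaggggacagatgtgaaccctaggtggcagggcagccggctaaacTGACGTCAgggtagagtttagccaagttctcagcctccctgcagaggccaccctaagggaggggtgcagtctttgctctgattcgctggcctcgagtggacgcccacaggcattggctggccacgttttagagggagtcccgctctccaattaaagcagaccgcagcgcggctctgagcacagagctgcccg
Crispld2 (chr19:64978706-64978955, plus strand): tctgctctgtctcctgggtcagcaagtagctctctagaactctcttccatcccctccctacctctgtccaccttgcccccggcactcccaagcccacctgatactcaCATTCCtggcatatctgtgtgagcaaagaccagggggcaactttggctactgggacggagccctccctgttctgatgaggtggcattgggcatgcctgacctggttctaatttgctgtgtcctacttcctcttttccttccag
Rasl11b (chr14:34373251-34373500, minus strand): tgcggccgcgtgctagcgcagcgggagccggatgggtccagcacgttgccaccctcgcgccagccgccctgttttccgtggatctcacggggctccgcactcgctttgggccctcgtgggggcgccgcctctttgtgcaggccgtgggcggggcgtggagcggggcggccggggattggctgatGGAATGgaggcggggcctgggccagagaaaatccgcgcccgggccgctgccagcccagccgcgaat

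Among the other motifs, the Sp1 motif GGGCGG stood in 10 of the 19 promoters and in 30.5% of all promoters. The NF-κB motif was found in 4 (Bhlhe41, Cspg4, Lamb3 and Cd24, against 6.33%), the TATA motif TATAAA in 1 (C1ql3, against 12.9%) and the CArG box of serum response factor in 1 (Tbc1d9, against 1.50%). None of the 19 windows held the AP-1 motif TGANTCA (6.34% of all promoters) or the ETS motif CCGGAAG (7.27%), which says only that these letters are absent from these windows. Motifs can share bases with one another, and the median GC content was 62.0% in the 19 promoters and 51.2% in all. A match is a description of sequence and was not tested.

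Most transcripts that report MEK-Erk1/2 activity fell with PD03 in these libraries. Of 18 genes known as transcriptional readouts of MEK-Erk1/2 signaling, 12 were lower in PD03 than in control and 13 lower in PD03 than in thrombin. A gene is called higher or lower here when edgeR's quasi-likelihood test gave a Benjamini-Hochberg adjusted p under 0.05 and the log2 fold change exceeded 0.58 in size. Dusp4 stood above control in PD03 (log2 fold change 0.56) and Spry1 above thrombin in PD03 (0.42), and neither passed the fold threshold. Over the 13256 genes tested, 4.07% were lower and 4.9% higher in PD03 than in control. The median log2 fold change of the 18 readouts was -0.96 for PD03 against control and -0.95 for PD03 against thrombin, with -0.00 and 0.01 over all genes tested. Mean CPM of Dusp6, the phosphatase that removes phosphate from Erk1/2, was 31.3 ± 1.61 in control, 23.5 ± 3.08 in thrombin and 4.10 ± 0.991 in PD03 (SD, n = 3). Egr1, an immediate early transcription factor, stood at 350 ± 50.3, 248 ± 70.3 and 17.8 ± 1.28 CPM in the same order. The ETS factors Etv4 and Etv5 went from 14.5 and 31.5 CPM in control to 2.26 and 8.90 in PD03. Spry4, a feedback inhibitor of receptor tyrosine kinase signaling, was at 32.6 in control and 16.5 in PD03. With thrombin alone only 2 of the 18 were higher than control, Dusp4 (log2 fold change 0.94) and Phlda1 (0.98), named after their values were seen. The selection required the 24 genes to be above control in these same PD03 libraries, so nothing is read from that contrast with the readouts. Whether the rise of the 24 genes needed MEK was not tested, since no library had PD03 alone.

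**Figure D1:**
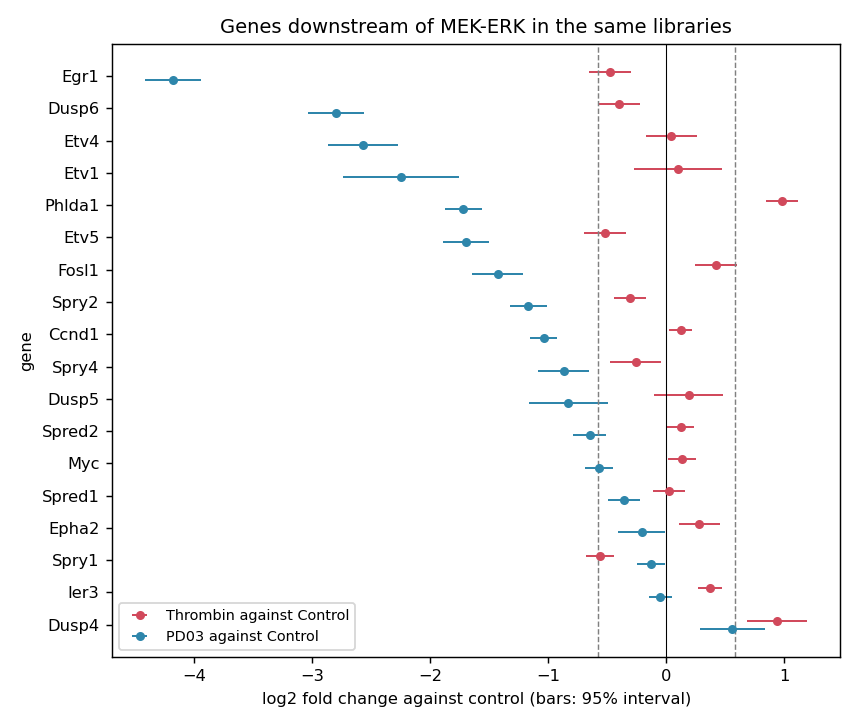
Log2 fold change of 18 MEK-Erk1/2 readout genes relative to control with thrombin (red) and with PD03 and thrombin (blue), with bars for the 95% interval and dashed lines at 0.58 in each direction. Most blue points lie far to the left, with Egr1 at -4.18 and Dusp6 at -2.80, while most red points lie near 0.

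Most thrombin-raised genes did not stay up. Of the 200 that were not kept, 118 had a mean PD03 CPM below the control mean, and their median PD03 level was 0.919 of control. The share of the thrombin rise that remained with PD03, computed as the PD03 minus control difference in mean CPM over the thrombin minus control difference, had a median of -11.0% over these 200 genes and of 97.9% over the 24. Since the selection itself set this contrast, it is a description only. By PD03 library, the median share over the 24 genes was 95.7%, 100.1% and 105.9%. Within the 24 it ran from 11.4% (Lamb3) to 268% (Atp8a2), with 3 genes under 50%, 9 between 50% and 100%, and 12 over 100%.

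**Figure D2:**
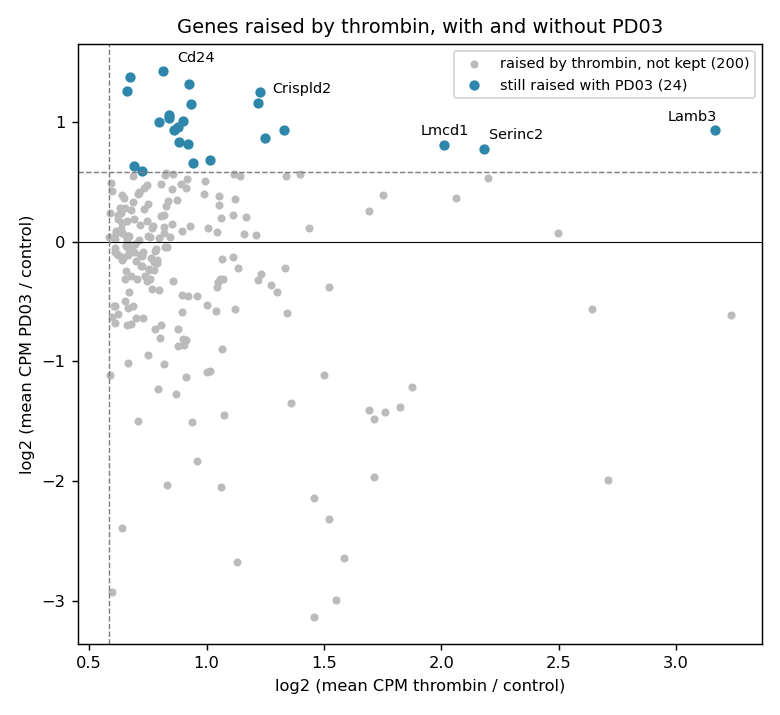
Log2 ratio of mean CPM to control in thrombin (x axis) and in PD03 with thrombin (y axis) for the 224 thrombin-raised genes, with the 24 that were kept in blue and the other 200 in grey. Dashed lines mark the 1.5-fold limits of the selection, and most grey points lie near or below 0 on the y axis, while Lamb3, Serinc2 and Lmcd1 lie far to the right of the other blue points.

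The size of the rise was modest for most of the 24 genes. The median fold over control was 1.88 in thrombin (range 1.58 to 8.97) and 1.93 in PD03 (range 1.51 to 2.69), and 2 genes, Crispld2 and Bhlhe41, were at least 2-fold above control in both groups. All 24 also met the limits of a call in both comparisons with control, which chose them, so nothing is read from that count. Over all tested genes 2.62% were higher and 5.44% lower with thrombin than control, and 0.483% were higher in both comparisons, which share the control libraries. Their expression was low to moderate, with a median FPKM (a level per transcript length, comparable between genes) of 1.95 in control, 3.65 in thrombin and 4.43 in PD03. Thrombin means ran from 0.323 FPKM for Atp8a2 to 169 for Rasl11b, which ranked 308th among all genes. The lowest single count of any of the 24 genes was 12 in control, 85 in thrombin and 26 in PD03 libraries.

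The difference between PD03 and thrombin was the one contrast that the selection did not use directly. The selection still bounded it, since PD03 had to stay 1.5-fold above control, so a fall of the size needed for a call was open to 7 of the 24 genes only (among them Lamb3, Serinc2, Lmcd1, Myo7a, Crispld2 and Bhlhe41), and the counts are read with that limit. Of the 24 genes, 3 were lower in PD03 than in thrombin (12.5%, against 6.31% of all tested genes), 3 were higher (12.5%, against 9.61%) and 18 were neither. When libraries were scaled by their totals in place of TMM (trimmed mean of M values), the same 3 lower and 3 higher genes were called, but over all genes the split went from 1274 higher and 836 lower to 1022 higher and 1176 lower. The median log2 fold change of the 24 was 0.08, and that of all tested genes 0.01. For 15 of the 24, the whole 95% interval of the log2 fold change lay within 0.58 of 0. On CPM by library totals, libraries of the PD03 and thrombin groups overlapped for 7 genes. All PD03 libraries were below all thrombin libraries for 9 genes and above them for 8. The matching shares over all tested genes were not computed, so nothing is read from these counts or from the 15 intervals. With no fold threshold, 4 of the 24 genes were lower and 8 higher, where 24.5% and 25.3% of all tested genes were.

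**Figure D3:**
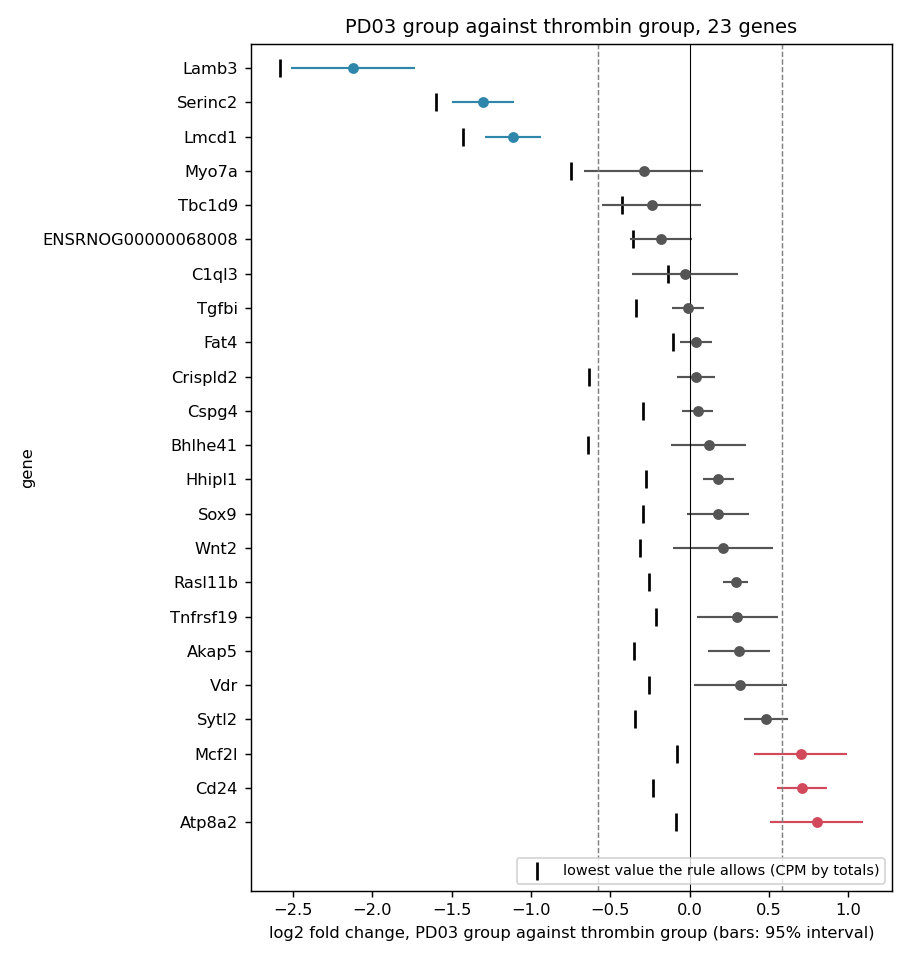
Log2 fold change of PD03 with thrombin against thrombin alone for 23 of the 24 genes (TMM-scaled edgeR fit), with bars for the 95% interval, dashed lines at 0.58 in each direction and a black tick at the lowest value the selection allowed on library-total CPM. Blue points are the 3 genes called lower, red points the 3 called higher and grey points genes called neither.

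The 3 genes that fell with PD03 were also the 3 with the highest fold over control in thrombin, and so had the most room to fall within the selection. Lamb3 encodes the β3 chain of laminin-332, a basement membrane laminin. Its CPM was 0.737, 1.17 and 0.777 in the control libraries, 8.13, 6.76 and 9.12 in thrombin, and 1.76, 1.61 and 1.74 in PD03. The PD03 libraries were tightly grouped, well below thrombin and narrowly above control, so Lamb3 kept 11.4% of its rise. Its log2 fold change for PD03 against thrombin was -2.12 ± 0.20 (SE, adjusted p = 7.5e-12). Serinc2, a multipass membrane protein of the serine incorporator family, was at 5.55, 6.47 and 7.64 CPM in control, 28.4, 29.2 and 31.6 in thrombin, and 13.1, 10.4 and 10.2 in PD03. It thus lost most of its rise without reaching the control range, with a log2 fold change of -1.30 ± 0.10 (adjusted p = 2.6e-14). Lmcd1, a LIM-domain cofactor that binds GATA factors, was at 15.1, 13.3 and 16.6 CPM in control, 49.3, 67.6 and 64.4 in thrombin, and 20.9, 29.6 and 28.5 in PD03. The lowest PD03 library of Lmcd1 lay nearer to the highest control library than to the lowest thrombin library, and the log2 fold change was -1.11 ± 0.09 (adjusted p = 2.4e-13). The cAMP response element shown above lay in the promoters of Lamb3 and Lmcd1 and was not found in that of Serinc2.

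**Figure D4:**
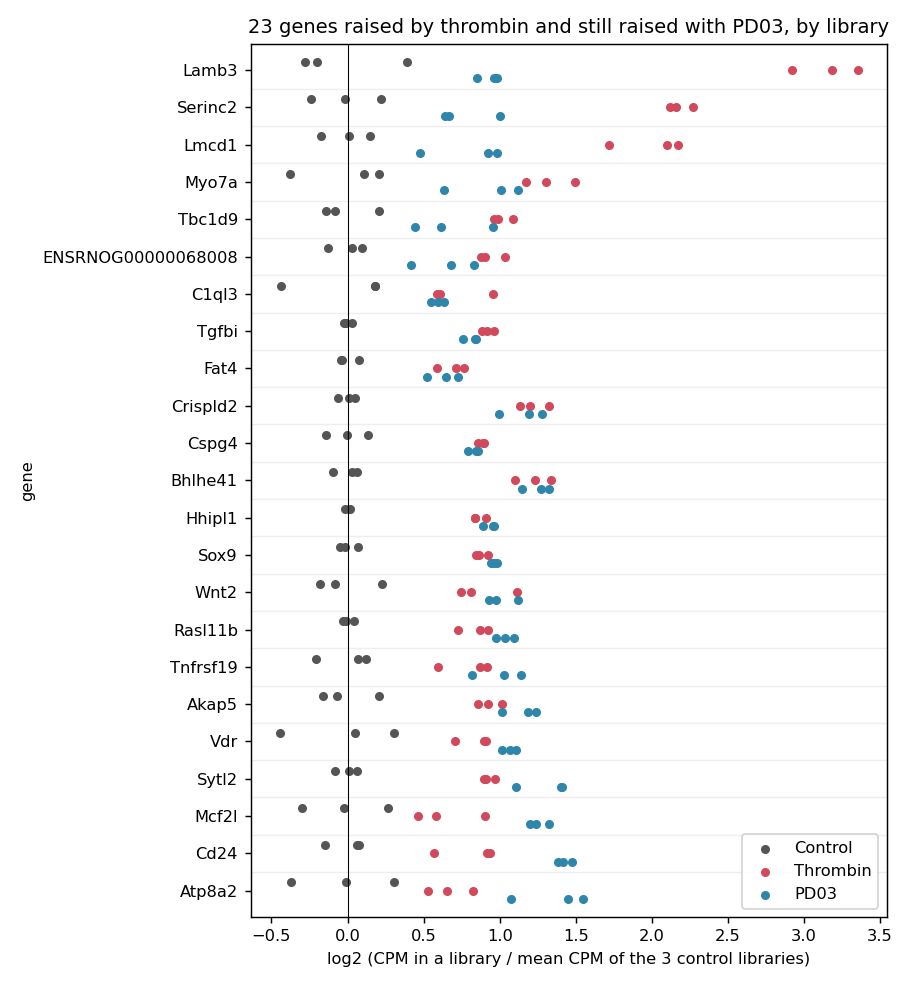
Log2 ratio of each library's CPM to the mean of the 3 control libraries for 23 of the 24 genes, with control in grey, thrombin in red and PD03 with thrombin in blue, ordered by the ratio of PD03 to thrombin. One gene carries an Ensembl identifier only, and all red and blue points lie to the right of all grey points of the same gene, as the selection required.

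Of the secreted and matrix proteins, Lamb3 is described above. Tgfbi, an extracellular matrix protein first found as a target of TGF-β, was at 66.3, 68.8 and 66.8 CPM in control, 127, 124 and 131 in thrombin, and 114, 121 and 120 in PD03. All PD03 libraries lay slightly below all thrombin libraries on this scale, and in the TMM-scaled fit the log2 difference was -0.01 with a 95% interval of -0.10 to 0.08. Crispld2, a secreted protein of the cysteine-rich CAP family, was at 25.2, 26.5 and 27.2 CPM in control, 65.8, 60.4 and 57.6 in thrombin, and 60.2, 52.5 and 63.9 in PD03. The treated groups of Crispld2 overlapped, with a log2 difference of 0.04 (interval -0.08 to 0.17), and -0.06 when library totals were used for scaling.

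Hhipl1, a secreted relative of the hedgehog-binding protein HHIP, was at 38.0, 37.7 and 37.0 CPM in control, 66.9, 70.5 and 66.9 in thrombin, and 73.2, 69.5 and 72.8 in PD03. Thrombin and PD03 overlapped for this gene (log2 difference 0.18, interval 0.07 to 0.28). Wnt2, a ligand of the Wnt pathway, was at 2.78, 3.69 and 2.98 CPM in control, 5.28, 5.53 and 6.81 in thrombin, and 6.20, 5.99 and 6.85 in PD03. Its treated libraries also overlapped, and at this low level the interval of the difference was wide (-0.10 to 0.52). C1ql3, a secreted protein of the C1q family, was the gene nearest to the limit, with 3.54, 5.85 and 5.33 mean CPM in control, thrombin and PD03 and a PD03 fold of 1.51. C1ql3 overlaps the genes Pter and Rsu1 in the RefSeq annotation, and the strand setting of the counting is not given, so shared reads cannot be told apart. Pter was at 4.59, 6.82 and 5.35 mean CPM in the 3 groups, and its part in the C1ql3 values was not tested.

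Of the cell-surface proteins besides Serinc2, 3 did not change past the threshold between thrombin and PD03 and Cd24 was called higher. Cspg4, the NG2 proteoglycan of pericytes and mesenchymal progenitors, was at 46.9, 42.7 and 38.8 CPM in control, 77.6, 79.6 and 79.4 in thrombin, and 76.9, 77.4 and 74.0 in PD03. Its PD03 libraries lay just below its thrombin libraries, and the log2 difference was 0.05 in the TMM-scaled fit (interval -0.06 to 0.15) and -0.05 with library totals. Fat4, an atypical cadherin of planar polarity and Hippo signaling, had means of 80.6, 130 and 125 CPM, with overlapping treated libraries and an interval of -0.06 to 0.14. Cd24, a glycolipid-anchored surface glycoprotein, was at 14.1, 14.2 and 12.2 CPM in control, 20.0, 25.8 and 25.5 in thrombin, and 37.6, 35.2 and 36.0 in PD03. Cd24 therefore stepped up from control to thrombin to PD03 without overlap, and its log2 fold change for PD03 against thrombin was 0.71 ± 0.08 (adjusted p = 1.4e-09). The call for Cd24 did not hold with glmTreat (adjusted p = 0.19) or with limma on FPKM with 1 added (log2 difference 0.57), and held with 0.1 added (0.61). Tnfrsf19 (TROY), a receptor of the tumor necrosis factor family, had means of 5.30, 9.23 and 10.6 CPM, and its log2 difference of 0.30 did not pass the fold threshold (interval 0.05 to 0.55).

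Apart from Lmcd1, the transcription regulators did not change past the threshold between thrombin and PD03. Sox9, the master transcription factor of cartilage, was at 7.82, 8.29 and 7.64 CPM in control, 15.0, 14.4 and 14.2 in thrombin, and 15.2, 15.6 and 15.4 in PD03. The PD03 libraries lay just above the thrombin libraries, with a log2 difference of 0.18 (interval -0.01 to 0.37, adjusted p = 0.12). Bhlhe41, a basic helix-loop-helix repressor linked to the circadian clock, was at 4.76, 4.66 and 4.27 CPM in control, 10.7, 11.5 and 9.77 in thrombin, and 10.1, 11.4 and 11.0 in PD03. Thrombin and PD03 libraries of Bhlhe41 overlapped, and the log2 difference was 0.12 (interval -0.11 to 0.35). Its close relative Bhlhe40 was higher with thrombin than control (56.9 ± 2.99 and 91.6 ± 3.24 CPM) and lower in PD03 (39.1 ± 6.62 CPM) than in thrombin, with a log2 fold change of -1.14, although the difference between the paralogs was not tested. Vdr, the nuclear receptor for vitamin D, had means of 3.94, 7.06 and 8.23 CPM, with a log2 difference of 0.32 that did not pass (adjusted p = 0.066, interval 0.03 to 0.61).

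Regulators of small GTPases, traffic and the cytoskeleton included the most abundant of the 24 genes. Rasl11b, a small GTPase of the Ras family, was at 191, 194 and 201 CPM in control, 323, 357 and 369 in thrombin, and 384, 399 and 417 in PD03. All PD03 libraries were above all thrombin libraries, but the step was small, at 0.29 ± 0.04 on the log2 scale (adjusted p = 1.1e-07). Sytl2, a synaptotagmin-like effector of Rab27 in vesicle transport, was at 16.9, 16.3 and 15.3 CPM in control, 31.7, 30.4 and 30.2 in thrombin, and 34.9, 43.1 and 42.8 in PD03. Its 3 PD03 libraries were all higher than thrombin, by 0.48 ± 0.07 on the log2 scale (adjusted p = 6.5e-07), the largest difference that did not pass the fold threshold. Akap5, which anchors protein kinase A and calcineurin, was at 7.99, 9.65 and 7.51 CPM in control, 15.9, 16.9 and 15.2 in thrombin, and 16.9, 19.1 and 19.8 in PD03. Its lowest PD03 library was level with its highest thrombin library, and the log2 difference was 0.31 (interval 0.12 to 0.51).

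Mcf2l and Atp8a2 were called higher in PD03 than in thrombin, from low levels. Mcf2l, a guanine nucleotide exchange factor, was at 3.91, 3.24 and 4.79 CPM in control, 5.95, 5.48 and 7.46 in thrombin, and 9.98, 9.14 and 9.40 in PD03. The PD03 libraries stood clear of the others, with a log2 fold change against thrombin of 0.70 ± 0.15 (adjusted p = 8.9e-05), whereas the gap between control and thrombin was narrow. Atp8a2, a flippase that moves phospholipids between membrane leaflets, was at 2.83, 3.63 and 4.53 CPM in control, 5.77, 6.48 and 5.27 in thrombin, and 10.0, 7.72 and 10.7 in PD03. It showed the same pattern with a log2 fold change of 0.80 ± 0.15 (adjusted p = 2.7e-05). Neither call held with glmTreat, which tests against the fold threshold itself (adjusted p = 0.61 for Mcf2l and 0.23 for Atp8a2), or with limma on FPKM, where the log2 differences were 0.26 and 0.20 with 1 added and 0.53 and 0.56 with 0.1 added. For these 2 genes the distance from control to PD03 exceeded that from control to thrombin, with 239% and 268% of the thrombin rise.

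Myo7a, an unconventional myosin, was at 2.44, 2.27 and 1.62 CPM in control, 5.95, 4.75 and 5.21 in thrombin, and 4.59, 3.27 and 4.24 in PD03. All PD03 libraries lay below all thrombin libraries, but the interval of the log2 difference included 0 (-0.65 to 0.08). Tbc1d9, with the TBC domain of Rab GTPase-activating proteins, had means of 3.15, 6.36 and 5.07 CPM and an interval of -0.56 to 0.09. The 1 gene without a symbol had means of 9.66, 18.5 and 15.2 CPM and an interval of -0.38 to 0.02. In the RefSeq annotation 9 of the 23 genes looked up overlap another gene, mostly uncharacterized loci. Of the overlapping partners, 3 were in the table, Pter and Rsu1 beside C1ql3, and Scfd2 beside Rasl11b, where Scfd2 had log2 differences of -0.12 between thrombin and control and of -0.35 between PD03 and thrombin, neither past the fold threshold.

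The position of the limits decided which genes were counted. Just inside lay C1ql3, Fat4 and the gene without a symbol, with smaller folds of 1.51, 1.55 and 1.57. Just outside lay Tnn, which encodes the matrix protein tenascin-W, with 985, 1475 and 1664 mean CPM in control, thrombin and PD03 and a smaller fold of 1.498. LOC100362384 (3.88, 5.78 and 6.16 CPM) and the nuclear receptor Nr4a2 (16.8, 29.9 and 25.1 CPM) came next, with 1.491 and 1.488. Among genes that met all conditions but the level limit, Mab21l3 (2.40, 4.89 and 3.86 CPM) and Olah (1.53, 4.80 and 2.79 CPM) lay nearest. Next to them came Axin2, a feedback target of Wnt signaling, at 1.83, 4.03 and 3.67 CPM. With TMM scaling, which moved PD03 upward by 0.12 against control on the log2 scale, 42 genes met the same conditions, and all 24 were among them. The 18 added genes had PD03 folds of 1.39 to 1.69 by library totals and included Tnn, Nr4a2, the tendon transcription factor Scx (4.96, 13.1 and 7.37 CPM) and the BMP antagonist Grem1 (318, 806 and 466 CPM), named after their values were seen. The collagen gene Col1a1 alone accounted for 6.78% to 6.96% of each PD03 library and for 4.18% to 5.05% of each control or thrombin library, which lowers the CPM of other genes in PD03 when totals are used, and 31 genes met the conditions when Col1a1 was left out of the totals.

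Of 25 gene lists, 3 held one of the 24 genes each. The list of TGF-β response genes held Tgfbi. Of its 16 genes, 6 were higher with thrombin than control, where 2.62% of all tested genes were. In PD03, 1 was higher than control and 3 were lower than in thrombin, where 4.9% and 6.31% of all tested genes were. Tgfbi was the 1 gene higher in PD03 than control. The other 5 thrombin-raised genes of the list, named after their values were seen, were Skil, Pmepa1, Bhlhe40, Ldlrad4 and Postn, and Pmepa1, a feedback inhibitor of TGF-β signaling, went from 73.2 ± 1.93 to 236 ± 3.86 and back to 87.4 ± 1.89 CPM. The median log2 fold change of the list was 0.36 with thrombin and -0.01 with PD03, each relative to control.

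The chondrocyte list held Sox9. Of its 8 tested genes, 3 were higher and 1 lower with thrombin than control, and 7 were higher and 1 lower in PD03 than control. Acan and Matn3, cartilage matrix genes, were also higher than control in both groups, at low levels (0.607, 1.46 and 1.13 CPM for Acan, 1.02, 2.41 and 1.65 CPM for Matn3), whereas Col2a1, the main cartilage collagen, was lower than control in both groups (86.9, 50.1 and 53.6 CPM). The summed CPM of the list was 634 to 661 in control, 549 to 572 in thrombin and 889 to 975 in PD03. The smooth muscle and pericyte list held Cspg4, and of its 10 tested genes 2 were higher with thrombin and 5 in PD03 than control. Its summed CPM was 1105 to 1209 in control, 1195 to 1238 in thrombin and 1879 to 1936 in PD03, and Acta2 alone had means of 646, 536 and 1386 CPM in the 3 groups, while the pericyte marker Rgs5 was at 0.454 CPM or less in all libraries. The part of these markers in the results for Sox9 and Cspg4 was not tested. Lists of NF-κB targets (25 tested) and of calcium, NFAT and CREB response genes (15 tested) held none of the 24. With thrombin against control, 5 NF-κB targets were higher and 2 lower, and 2 calcium, NFAT and CREB genes were higher and 3 lower, where 2.62% and 5.44% of all tested genes were higher and lower. In PD03 against control, 8 NF-κB targets were lower and the other 17 were not called, and 3 calcium, NFAT and CREB genes were higher and 5 lower, where 4.9% and 4.07% of all tested genes were higher and lower.

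As a check of the cells, Col1a1 (48877 ± 2371 CPM in control), Col1a2, Sparc and Runx2 (44.1 ± 2.21 CPM) were expressed in all groups. The late osteoblast and osteocyte markers Bglap, Ibsp, Dmp1, Mepe and Sost were at or near 0 and too low to test. The same held for Dlx5, an osteoblast transcription factor that is not a late marker. Alpl, the alkaline phosphatase of mineralization, was at 1.72 ± 0.829 CPM in control, 0.352 ± 0.0148 in thrombin and 2.95 ± 0.598 in PD03. Lymphoid markers summed to at most 0.178 CPM in any library.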

How the data were processed

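RNA-seq libraries of 3 control, 3 thrombin and 3 PD03 samples were analysed. The authors deposited 1 table with a raw read count and an FPKM value per gene and library. Per the paper, reads were trimmed with fastp, aligned with HISAT2 to Rnor_6.0, counted with featureCounts and tested with DESeq2. The submitters' processing notes instead name HISAT2, HTSeq 0.13.5 and mRatBN7.2, and no source used here gives the annotation release or strandedness. PD03 is given as 0.1 μM in the paper and in millimolar in a protocol of the labels. The 24 genes and the gene lists were chosen with earlier results of these data known, and motifs were chosen after seeing the data.

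Membership used CPM by library total. Counts were fitted with edgeR 4.0.16 in R 4.3.3 (TMM scaling, filterByExpr with a minimum count of 10, glmQLFit and glmQLFTest over all 9 libraries), with p-values adjusted over 13256 genes. Calls needed an adjusted p under 0.05 and a log2 fold change above 0.58 in size. No p-value for a comparison with control is read for the 24 genes, and the values of 1 of them are not reported here. Named with a value in every library were the 8 genes with the largest smaller fold, the 8 with the highest thrombin FPKM, those called in PD03 against thrombin, and those on a gene list. Also named were 5 MEK-Erk1/2 readouts, the genes just outside the limits and osteoblast markers. Library totals (15447832 to 19841468) limit precision for low genes. Alternatives used DESeq2 1.42.0, limma 3.58.1 (FPKM with 1 or 0.1 added before log2), other scalings, other filters, a replicate block and single libraries left out. Scripts were tested on simulated data. Replicate libraries of a group differed beyond counting error, with a chi-square statistic of 1.82 to 3.99 for each degree of freedom. RefSeq tables of GRCr8 gave promoters and overlapping genes.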

Additional observations from a re-analysis of the deposited data

How the results depend on the processing

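The 3 genes lower in PD03 than thrombin were called in all alternatives, and without a fold threshold the count was 4. The count of 3 higher was 0 with glmTreat, 0 from FPKM with 1 added, 1 (Cd24) from FPKM with 0.1 added, 0 at a log2 fold change above 1 and 8 without a fold threshold. It was 3 with each library left out. The number of genes meeting the conditions was 42 with TMM scaling, 43 with DESeq2 size factors, 10 with FPKM in place of CPM (the other 14 were under 5 FPKM in thrombin) and 2 at a fold minimum of 2, and 23 to 30 with a library left out, when Atp8a2 and C1ql3 (Control 1), Mcf2l (Control 2 or Thrombin 3), Myo7a (Thrombin 1), C1ql3 and Tbc1d9 (PD03 2) or the gene without a symbol (PD03 3) dropped out. The median share of the rise kept was 111.3% with TMM scaling, 109.8% with DESeq2 size factors and 94.3% to 103.6% with a library left out.

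Genes near 0 changed sign without a call. Crispld2 was at -0.06 with library totals, FPKM with 1 added and FPKM with 0.1 added, and at -0.02 with the gene length trend removed, with Col1a1 left out of the totals and without PD03 3, within -0.02 to 0.12 over the libraries left out. Cspg4 was at -0.05 in the first 3 of these, -0.04 with the length trend removed and -0.01 without Col1a1. Fat4 was at -0.06 with totals, -0.05 and -0.06 from FPKM, -0.11 with the length trend removed, -0.02 without Col1a1 and without Thrombin 1, and -0.01 without PD03 3, within -0.02 to 0.09 over the libraries left out. Tgfbi was at 0.01 without Thrombin 3 and 0.02 without PD03 1, and C1ql3 at 0.08 without Thrombin 1. The alternatives for the length trend and Col1a1 were chosen after seeing the data. TMM scaling was used in the main fit and not with library totals or FPKM. Relative to totals, it moved PD03 upward against thrombin by 0.10 on the log2 scale. The cause of these changes was not tested.

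Same-numbered libraries showed no shared deviation from their group means (9 pairs, correlations of -0.046 to 0.052). Differently numbered pairs ranged from -0.056 to 0.055. This check cannot show whether same-numbered samples shared an animal or a batch. With a replicate block the count stayed at 3 lower and 3 higher, and over all genes it was 839 lower and 1264 higher. Counts as low as 12 limit Lamb3 in control.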
